A study of Mus musculus with 9 samples.

Results

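The dystrophin complex and the costamere were followed through 9 genes, taken as the rows of the gene table whose symbols are Dmd, Utrn, Dag1, Sgca, Sgcb, Sgcd, Vcl, Tln2 and Itgb1, out of 29237 genes in all. RNA was sequenced from hearts of wild-type C57BL/6 mice aged 8 to 12 weeks, with 3 libraries each from TPTN-treated hearts, from a model labelled DOX, for the doxorubicin that the series title gives, and from Control hearts that the design text calls normal. Doxorubicin, a cancer drug of the anthracycline class, is known to be toxic to heart muscle, and the series title names dilated cardiomyopathy. The labels do not say what TPTN stands for, whether TPTN mice also received doxorubicin, or which doses and days were used, and they do not state that libraries of a group came from separate animals, so p-values measure the spread between these libraries, which may be technical.

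Dystrophin links the actin cytoskeleton inside a muscle fibre to a group of membrane proteins, the dystroglycans and sarcoglycans, and through them to laminin outside the cell. A second link runs through integrins, talin and vinculin. Both lie in costameres, bands of the membrane over the Z-discs, where they pass contractile force sideways to the matrix and protect the membrane from tearing. Loss of dystrophin, of a sarcoglycan or of vinculin is known to lead to cardiomyopathy.

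Levels are given in FPKM, fragments mapped to a gene scaled to its transcript length and to the library, as the authors deposited them, so that levels of different genes can be compared per length. Changes are on the log2(FPKM + 1) scale from limma, a linear model with a spread shared over genes, and a gene passed at a Benjamini-Hochberg adjusted p under 0.05 over the 12500 genes with a mean of at least 0.5 FPKM. All 9 genes met that minimum. The libraries held heart muscle: the summed FPKM of 7 cardiomyocyte markers was 11801 to 12072 in TPTN, 11442 to 12896 in DOX and 10378 to 11462 in Control. Of these 7 markers 2 passed higher and 1 lower in DOX against Control, beside 2.23% higher and 0.4% lower of all tested genes. In the other comparisons 0 passed. The skeletal muscle myosin genes Myh1 and Myh2 were listed at 0 in 7 and 8 of the 9 libraries. Other genes of that marker list were above 0 in all 9. Acta1 ran from 66.5 to 257 FPKM, Ckm from 409 to 582 FPKM and Tnnt3 from 0.0501 to 0.249 FPKM. Atrial markers summed to 58.9 to 126 FPKM in TPTN, 203 to 2544 in DOX and 56.3 to 153 in Control, and their part in the results was not tested. The DOX libraries were unlike in this. Myl7, Myl4, Sln and Bmp10 were at 539, 84.3, 85.3 and 66.3 FPKM in DOX replicate 1, and did not exceed 0.889 FPKM in any other library. The sums of 296 and 203 FPKM in DOX replicates 2 and 3 were mostly Nppa, at 288 and 195 FPKM. In bulk tissue, fewer cells of a type and less RNA per cell cannot be told apart.

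The 9 genes spanned a wide range of levels. Itgb1 was the highest at 65.8 FPKM over the 9 libraries, above every value of the other genes. Sgca at 42.3 FPKM and Dag1 at 41.8 FPKM came next and could not be ordered, as Sgca was the higher in 5 of 9 libraries. Sgcb at 22.4 FPKM and Vcl at 9.81 FPKM each stood clear of its neighbours. Utrn at 3.48 FPKM and Tln2 at 3.39 FPKM overlapped, with Utrn the higher in 5 of 9 libraries. Dmd at 1.55 FPKM and Sgcd at 0.862 FPKM were the lowest, and their values did not overlap each other. Itgb1 lay above 96.7% of the tested genes in level, while Sgcd lay above 12.9%. The 3 genes with the longest transcripts, Dmd with 14910 bases, Utrn with 12382 and Tln2 with 12132, did not exceed 4.16 FPKM in any library.

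**Figure D1:**
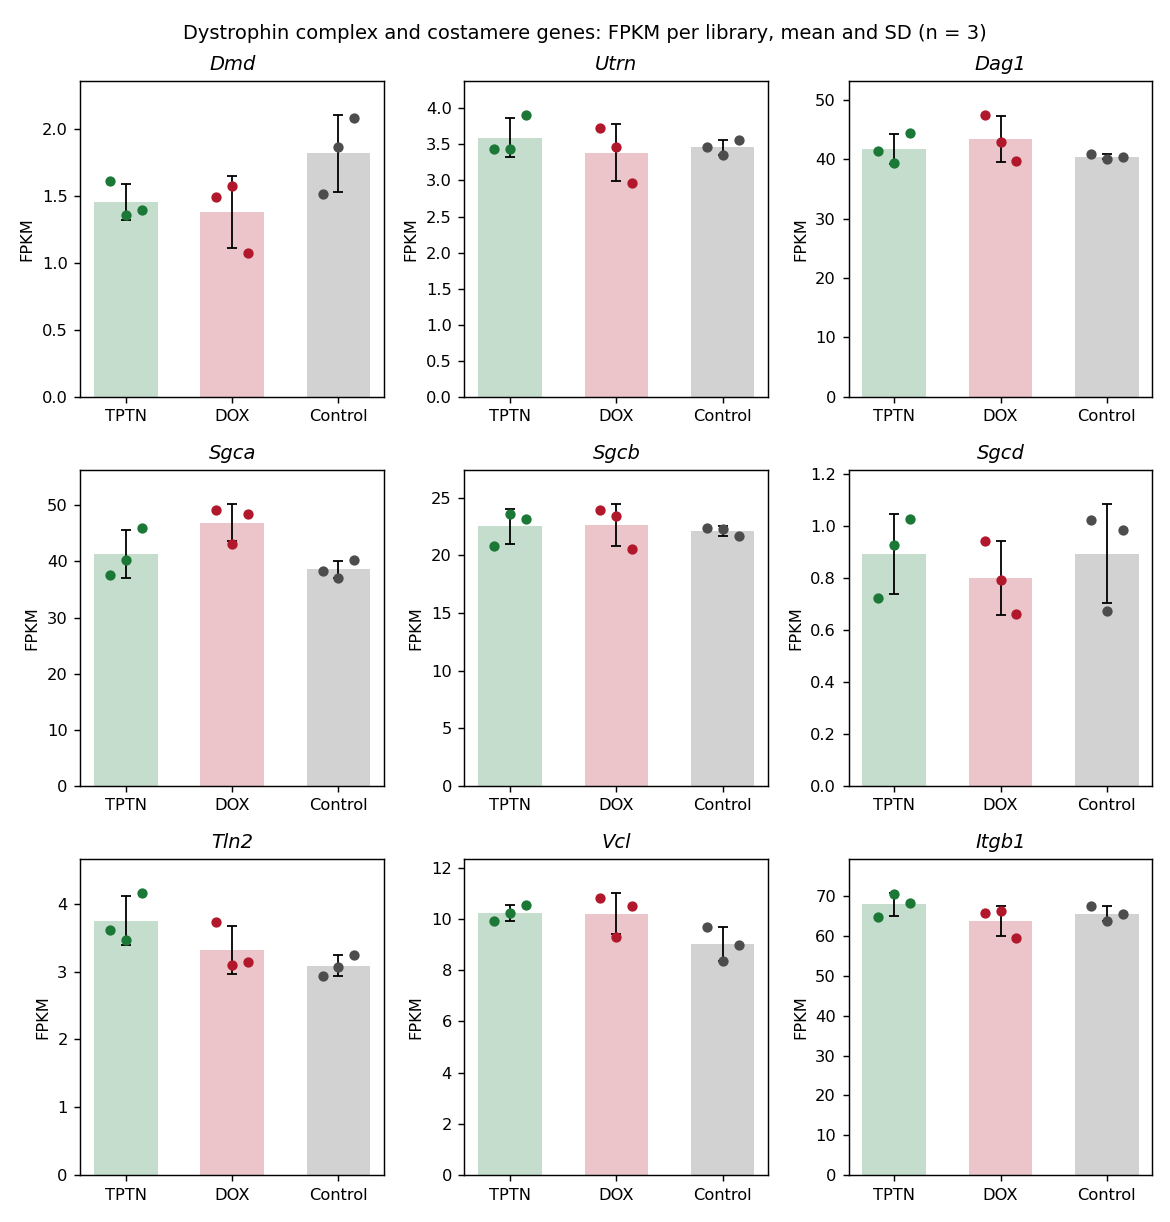
FPKM (y axis, from 0, a scale of its own in each panel) of the 9 genes in TPTN, DOX and Control libraries; points are libraries, bars the mean and whiskers the SD (n = 3). The groups overlap in most panels: Sgca is higher in all DOX than in all Control libraries, and Vcl and Tln2 are higher in all TPTN than in all Control libraries.

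Dmd encodes dystrophin and lies on the X chromosome of GRCm38 (ENSMUSG00000045103, 82948870 to 85206141, plus strand), the largest gene of the set with a span of 2257272 bases. It had 1.61, 1.36 and 1.40 FPKM in TPTN replicates 1, 2 and 3, 1.49, 1.58 and 1.07 FPKM in DOX and 1.51, 1.86 and 2.08 FPKM in Control. Control replicates 2 and 3 were above the other 7 libraries, while Control replicate 1 lay within the DOX and TPTN values. The change was -0.25 in DOX against Control (limma, SE 0.10, 95% interval -0.48 to -0.01, adjusted p = 0.251) and -0.20 in TPTN against Control (SE 0.10, adjusted p = 0.469). It was 0.05 in TPTN against DOX (SE 0.10, adjusted p = 0.835). The DOX against Control value was -0.29 under median ratio scaling and -0.28 under quantile normalization (limma adjusted p = 0.2 and 0.186). With mitochondrial genes and their nuclear copies left out of the sum it was -0.34 (adjusted p = 0.125). Over the 9 libraries its highest value was 1.95 times its lowest, the widest range of the 9 genes.

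GENCODE M21 lists 11 Dmd transcripts and the table has 1 value for the gene, while RefSeq (GRCm38.p6) gives Dmd starts in 2 places, so the value does not separate the products of different promoters. The 250 bases before each start are shown because the gene's value does not tell them apart, together with those of Sgca and Vcl, described further on. All are read 5′ to 3′ on the gene's strand, with capitals on matches to an E-box (CANNTG), a CArG box, which serum response factor binds, or a MEF2 site, searched on both strands.
Dmd first start, plus strand, chrX:82948620-82948869: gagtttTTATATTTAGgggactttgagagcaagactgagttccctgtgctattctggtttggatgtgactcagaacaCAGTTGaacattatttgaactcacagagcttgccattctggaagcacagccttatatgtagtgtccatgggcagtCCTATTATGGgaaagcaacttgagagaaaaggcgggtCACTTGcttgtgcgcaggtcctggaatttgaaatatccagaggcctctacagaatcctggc
Dmd second start, plus strand, chrX:85048045-85048294: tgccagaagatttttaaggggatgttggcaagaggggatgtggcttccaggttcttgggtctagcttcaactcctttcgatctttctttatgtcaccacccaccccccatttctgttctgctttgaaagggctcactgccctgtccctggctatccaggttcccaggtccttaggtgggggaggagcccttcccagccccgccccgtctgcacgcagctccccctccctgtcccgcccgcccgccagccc
Sgca, minus strand, chr11:94976328-94976577: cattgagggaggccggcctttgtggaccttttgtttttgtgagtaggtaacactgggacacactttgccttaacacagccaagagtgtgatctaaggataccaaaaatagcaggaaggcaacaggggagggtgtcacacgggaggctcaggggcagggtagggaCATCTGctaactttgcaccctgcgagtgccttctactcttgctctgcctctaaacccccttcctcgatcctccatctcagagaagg
Vcl, plus strand, chr14:20929148-20929397: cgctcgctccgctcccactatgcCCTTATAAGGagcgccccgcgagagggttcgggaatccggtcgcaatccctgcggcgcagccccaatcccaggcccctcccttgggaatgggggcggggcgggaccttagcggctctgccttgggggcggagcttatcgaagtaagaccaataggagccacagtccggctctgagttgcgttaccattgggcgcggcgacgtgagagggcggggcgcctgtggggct
The window before the first Dmd start held 2 E-boxes, 1 CArG box and 1 MEF2 match, none overlapping, and that before the second start held 0 of any. The Sgca window held 1 E-box and the Vcl window 1 CArG box. The windows not shown, of Utrn, Dag1, Sgcb, Sgcd and Itgb1, held 0 CArG boxes and 0 MEF2 matches. Over all 32851 RefSeq windows of this length, 66.2% held an E-box, 1.47% a CArG box and 2.92% a MEF2 match. These are matches of letters and say nothing of binding.

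Utrn encodes utrophin, the autosomal relative of dystrophin (ENSMUSG00000019820, chromosome 10, 12382188 to 12869365, minus strand). It had 3.44, 3.44 and 3.91 FPKM in TPTN, 3.73, 3.46 and 2.96 FPKM in DOX and 3.47, 3.36 and 3.56 FPKM in Control. The 3 groups overlapped. The change was 0.07 in TPTN against DOX, -0.03 in DOX against Control and 0.04 in TPTN against Control, with 95% intervals of -0.11 to 0.25, -0.21 to 0.15 and -0.14 to 0.22. In a mouse lacking dystrophin, utrophin is known to compensate in part, so the ratio of the pair was followed in each library. A scaling factor shared by all genes of a library drops out of this ratio. The ratio was not taken under quantile normalization or with a length trend removed. Utrn stood at 2.14, 2.53 and 2.80 times Dmd in TPTN, 2.50, 2.20 and 2.77 times in DOX and 2.29, 1.80 and 1.71 times in Control. The ratio averaged 2.49 ± 0.334 in TPTN, 2.49 ± 0.285 in DOX and 1.93 ± 0.314 in Control (SD, n = 3 each). The mean log2 ratio was higher by 0.37 in DOX than in Control and by 0.37 in TPTN than in Control (exact permutation p = 0.2 in each, two-sided, where 3 against 3 can give no less than 0.1). In both contrasts the groups overlapped through Control replicate 1. With 1 FPKM added to each gene the differences were 0.22 in DOX against Control and 0.24 in TPTN against Control. TPTN and DOX differed by 0.00 (exact permutation p = 1).

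**Figure D2:**
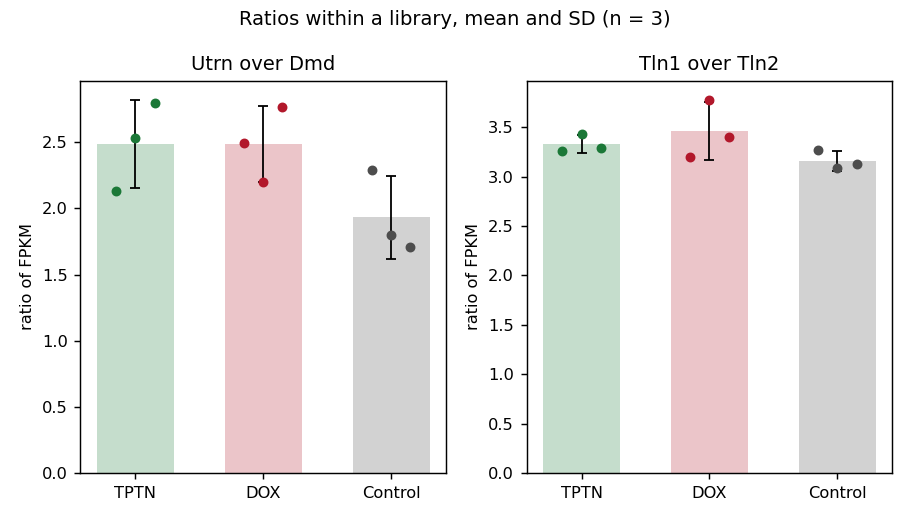
Ratio of FPKM within a library (y axis, from 0) for Utrn over Dmd and for Tln1 over Tln2 in TPTN, DOX and Control; points are libraries, bars the mean and whiskers the SD (n = 3). Utrn over Dmd averages 2.49 in TPTN and in DOX and 1.93 in Control, with Control replicate 1 at 2.29 inside the range of the others.

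Dag1 encodes the precursor of both dystroglycans, the laminin receptor of the complex and its anchor for dystrophin (ENSMUSG00000039952, chromosome 9, 108204634 to 108263958, minus strand). It had 41.4, 39.3 and 44.3 FPKM in TPTN, 47.5, 42.9 and 39.8 FPKM in DOX and 40.8, 40.0 and 40.3 FPKM in Control. Control values lay within a narrow band (SD 0.423), and the DOX libraries spread on both sides of it. The change was -0.05 in TPTN against DOX, 0.10 in DOX against Control and 0.04 in TPTN against Control (limma adjusted p = 0.734, 0.555 and 0.863).

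Sgca encodes alpha-sarcoglycan, a sarcoglycan of striated muscle (ENSMUSG00000001508, chromosome 11, 94962791 to 94976327, minus strand). It had 37.6, 40.2 and 46.0 FPKM in TPTN, 49.2, 43.1 and 48.5 FPKM in DOX and 38.4, 37.1 and 40.3 FPKM in Control. All 3 DOX libraries were above all 3 Control libraries, and TPTN replicate 3 lay among the DOX values. The change in DOX against Control was 0.27 (limma, SE 0.08, 95% interval 0.09 to 0.46), which has an unadjusted p of 0.00811 and an adjusted p of 0.113. In TPTN against DOX it was -0.18 (SE 0.08, adjusted p = 0.251) and in TPTN against Control 0.09 (SE 0.08, adjusted p = 0.715). The DOX against Control value depended on scaling: it was 0.13 under quantile normalization and 0.11 with mitochondrial genes and their nuclear copies left out of the sum.

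Sgcb encodes beta-sarcoglycan and Sgcd delta-sarcoglycan, which together form the core on which the sarcoglycans assemble. Sgcb (ENSMUSG00000029156, chromosome 5, 73632749 to 73647790, minus strand) had 20.8, 23.6 and 23.2 FPKM in TPTN, 24.0, 23.4 and 20.6 FPKM in DOX and 22.4, 22.3 and 21.7 FPKM in Control. Control again lay inside the spread of both other groups. Sgcb had the narrowest range of the 9 genes, with the highest library at 1.16 times the lowest. Sgcd (ENSMUSG00000020354, chromosome 11, 46896253 to 47988969, minus strand) had 0.723, 0.928 and 1.03 FPKM in TPTN, 0.944, 0.793 and 0.662 FPKM in DOX and 1.02, 0.674 and 0.984 FPKM in Control, and these overlapped. At no more than 1.03 FPKM its changes on the log2(FPKM + 1) scale are understated, and its 95% intervals were -0.15 to 0.30 in TPTN against DOX, -0.29 to 0.15 in DOX against Control and -0.22 to 0.22 in TPTN against Control.

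Tln2 encodes talin 2, the talin enriched in striated muscle, which joins integrin tails to actin (ENSMUSG00000052698, chromosome 9, 67217087 to 67559703, minus strand). It had 3.62, 3.47 and 4.16 FPKM in TPTN, 3.73, 3.09 and 3.14 FPKM in DOX and 2.94, 3.06 and 3.25 FPKM in Control. All TPTN libraries were above all Control libraries, while DOX replicate 1 lay among the TPTN values. The change was 0.22 in TPTN against Control (limma, SE 0.08, 95% interval 0.03 to 0.40, unadjusted p = 0.027, adjusted p = 0.308). It was 0.14 in TPTN against DOX (SE 0.08, adjusted p = 0.395) and 0.08 in DOX against Control (SE 0.08, adjusted p = 0.688). Tln1, the talin of most cell types, was the more abundant of the pair: it stood at 3.26, 3.43 and 3.29 times Tln2 in TPTN, 3.20, 3.78 and 3.40 times in DOX and 3.27, 3.08 and 3.12 times in Control. The mean log2 ratio differed by -0.05 in TPTN against DOX, 0.13 in DOX against Control and 0.07 in TPTN against Control (exact permutation p = 0.7, 0.2 and 0.2, two-sided). The DOX against Control difference was 0.06 without DOX replicate 2.

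Vcl encodes vinculin, which binds talin and actin at costameres and intercalated discs (ENSMUSG00000021823, chromosome 14, 20929398 to 21033676, plus strand). It had 9.91, 10.2 and 10.6 FPKM in TPTN, 10.8, 9.31 and 10.5 FPKM in DOX and 9.68, 8.36 and 8.97 FPKM in Control. TPTN was above Control in every library, and DOX replicate 2 lay below the highest Control library. The change was 0.17 in TPTN against Control (limma, SE 0.08, 95% interval 0.00 to 0.34, adjusted p = 0.378) and 0.16 in DOX against Control (SE 0.08, adjusted p = 0.289). TPTN and DOX differed by 0.00 (95% interval -0.16 to 0.17). The DOX against Control value depended on scaling, at 0.11 under median ratio scaling, 0.08 under quantile normalization and 0.01 without mitochondrial genes and copies in the sum.

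Itgb1 encodes integrin beta 1, the main integrin beta chain of heart muscle and also of the vessel and matrix cells around it (ENSMUSG00000025809, chromosome 8, 128685654 to 128733200, plus strand). It had 64.9, 70.6 and 68.5 FPKM in TPTN, 65.9, 66.3 and 59.4 FPKM in DOX and 67.5, 63.8 and 65.7 FPKM in Control. The groups overlapped, and the change was 0.09 in TPTN against DOX, -0.04 in DOX against Control and 0.05 in TPTN against Control (limma, SE 0.07 each; adjusted p = 0.47, 0.801 and 0.816). In TPTN against DOX it came closest to the threshold under another scaling, at 0.25 (adjusted p = 0.0507) under quantile normalization and 0.22 (adjusted p = 0.06) when the sum was taken over nuclear genes other than those copies.

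The first comparison sets TPTN hearts against the DOX model. Of the 9 genes 0 passed in limma, against 3.26% of all tested genes (0.792% higher and 2.46% lower), and 0 had an unadjusted p under 0.05, against 20.6% of all tested genes. The changes ran from -0.18 for Sgca to 0.14 for Tln2, with a median of 0.05 beside -0.01 over all tested genes. All 95% intervals lay between -0.37 and 0.32, on the log2(FPKM + 1) scale. Scaling moved these values and those of all genes. With mitochondrial genes and copies left out of the sum, the median was 0.13 over the 9 genes and 0.09 over all tested genes. In that scaling 671 of 12502 tested genes passed, 542 of them higher. Itgb1 was then at 0.22 (limma unadjusted p = 0.0046, adjusted p = 0.06) and Tln2 at 0.24 (unadjusted p = 0.0232, adjusted p = 0.125). The groups overlapped for all 9 genes, against 24.5% of tested genes whose groups did not (10.4% higher and 14.1% lower).

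The DOX against Control comparison asks what differed in the model hearts. Again 0 of 9 passed in limma, against 2.63% of all tested genes (2.23% higher and 0.4% lower), and 2, Sgca and Dmd, had an unadjusted p under 0.05, against 18% of tested genes. The 2 lay on opposite sides: Sgca at 0.27 was the highest and Dmd at -0.25 the lowest of the 9. The median was 0.03, beside 0.04 over all tested genes, and its sign depended on scaling: it was -0.03 under median ratio scaling, -0.07 under quantile normalization and -0.13 without mitochondrial genes and copies. Over all tested genes the median under the same scalings was -0.0017, -0.0103 and -0.0708. In that last scaling Itgb1 was at -0.20 (unadjusted p = 0.0076, adjusted p = 0.108) in place of -0.04. Dmd was then at -0.34 (limma unadjusted p = 0.011, adjusted p = 0.125) and Sgca at 0.11 (adjusted p = 0.45). Intervals reached from -0.48 for Dmd to 0.46 for Sgca on the log2(FPKM + 1) scale, which understates the change of a gene as low as Dmd. Of the 9 genes 1, Sgca, was higher without overlap, against 17.7% of tested genes, and 0 were lower without overlap, against 5.1% (22.8% in either direction).

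In TPTN against Control 0 of 9 passed in limma, against 0.72% of all tested genes (0.336% higher and 0.384% lower), and Tln2 and Vcl had an unadjusted p under 0.05, against 13.1%. The changes ran from -0.20 for Dmd to 0.22 for Tln2, with a median of 0.04 beside 0.04 over all tested genes, and 8 of the 9 were positive, against 4 under median ratio scaling. Without mitochondrial genes and copies in the sum, the median was 0.02 over the 9 genes and 0.01 over all tested genes. Tln2 and Vcl then had an unadjusted p of 0.0577 and 0.0845 in limma. Tln2 and Vcl were higher without overlap, 2 of 9 genes, against 15.2% of tested genes, and 0 were lower without overlap, against 6.03% (21.3% in either direction). The 3 comparisons share libraries, so their values are not independent of each other. A p that misses the threshold does not show equal levels, and 3 libraries a group leave room for the changes inside these intervals.

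**Figure D3:**
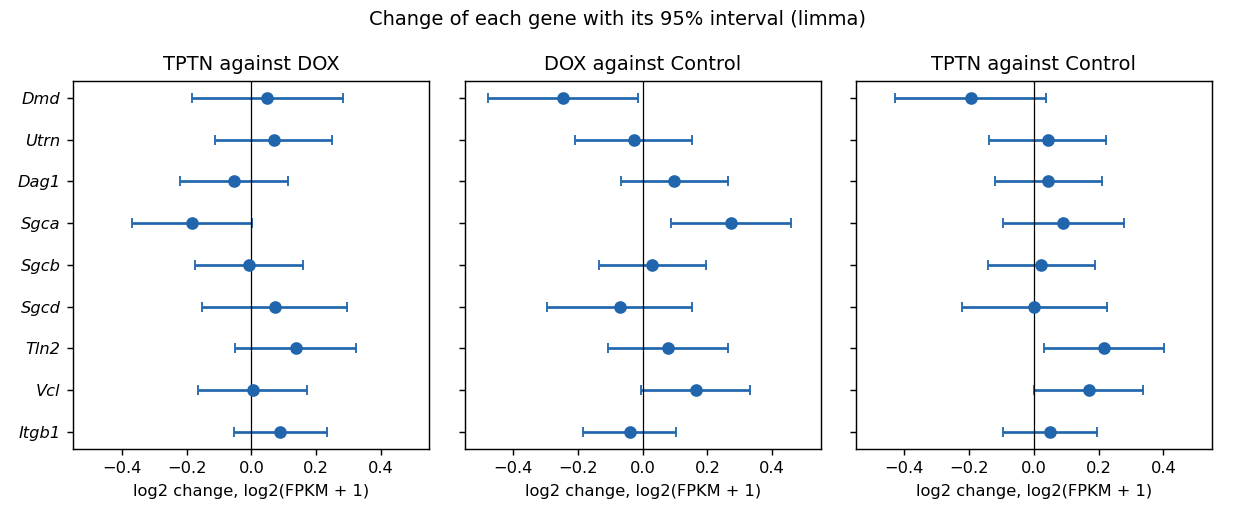
Change of each gene on the log2(FPKM + 1) scale (x axis) with its 95% interval from limma, for TPTN against DOX, DOX against Control and TPTN against Control. The intervals that leave out 0 are those of Sgca and Dmd in DOX against Control and of Tln2 and Vcl in TPTN against Control, and 0 of the 27 passed after adjustment.

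Single libraries held the extremes of several of the genes. DOX replicate 3 held the lowest of the 9 values for 5 genes, Dmd, Utrn, Sgcb, Sgcd and Itgb1, and DOX replicate 1 held the highest for 4, Sgca, Dag1, Sgcb and Vcl. How often these libraries held the extremes over all tested genes was not counted. DOX replicate 3 also had the fewest genes above 0 (21063) and the lowest mitochondrial share of the FPKM sum (44.7%). Without DOX replicate 3 the Dmd change in DOX against Control was -0.15 in place of -0.25 (adjusted p = 0.501). Without DOX replicate 1, the library with the atrial marker sum of 2544 FPKM, the Sgca change was 0.24 (adjusted p = 0.199). In DOX against Control Tln2 was then at 0.01 in place of 0.08, and Vcl at 0.12 in place of 0.16. In TPTN against DOX Tln2 was then at 0.20 (limma unadjusted p = 0.0319, adjusted p = 0.16) in place of 0.14. Across the 9 libraries Dmd ran against Vcl (Pearson r = -0.77, n = 9) and against Sgca (r = -0.60), and Sgcd ran with Itgb1 (r = 0.74), Utrn with Sgcd (r = 0.74) and Sgca with Vcl (r = 0.71). These values share the same libraries, groups and scaling and are given as a description.

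The median change of all tested genes differed with transcript length. In DOX against Control the median change of all tested genes was 0.14 for genes whose longest listed transcript is up to 1500 bases, 0.08 from there to 3000, 0.03 to 5000, -0.01 to 8000 and -0.03 above 8000. In TPTN against DOX the order was the other way, at -0.13, -0.05, 0.02, 0.07 and 0.09. Sgca, the shortest of the 9 at 1724 bases, was 0.20 above the median of its length class in DOX against Control and -0.13 from it in TPTN against DOX. Dmd was -0.21 from its class median in DOX against Control and -0.25 in TPTN against Control. Utrn, nearly as long, was 0.01 from the class median in DOX against Control and -0.01 in TPTN against Control. With the length trend removed, the DOX against Control change was 0.17 for Sgca (adjusted p = 0.334) and -0.18 for Dmd (adjusted p = 0.365). With a trend on median in place of longest transcript length, an alternative added after the data were seen, it was 0.22 for Sgca (adjusted p = 0.201) and -0.27 for Dmd (adjusted p = 0.211). The Tln2 change in TPTN against DOX, 0.14 with no trend removed, was 0.02 with the trend on longest length removed (limma adjusted p = 0.891). It was 0.07 with that on median length removed (adjusted p = 0.609).

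**Figure D4:**
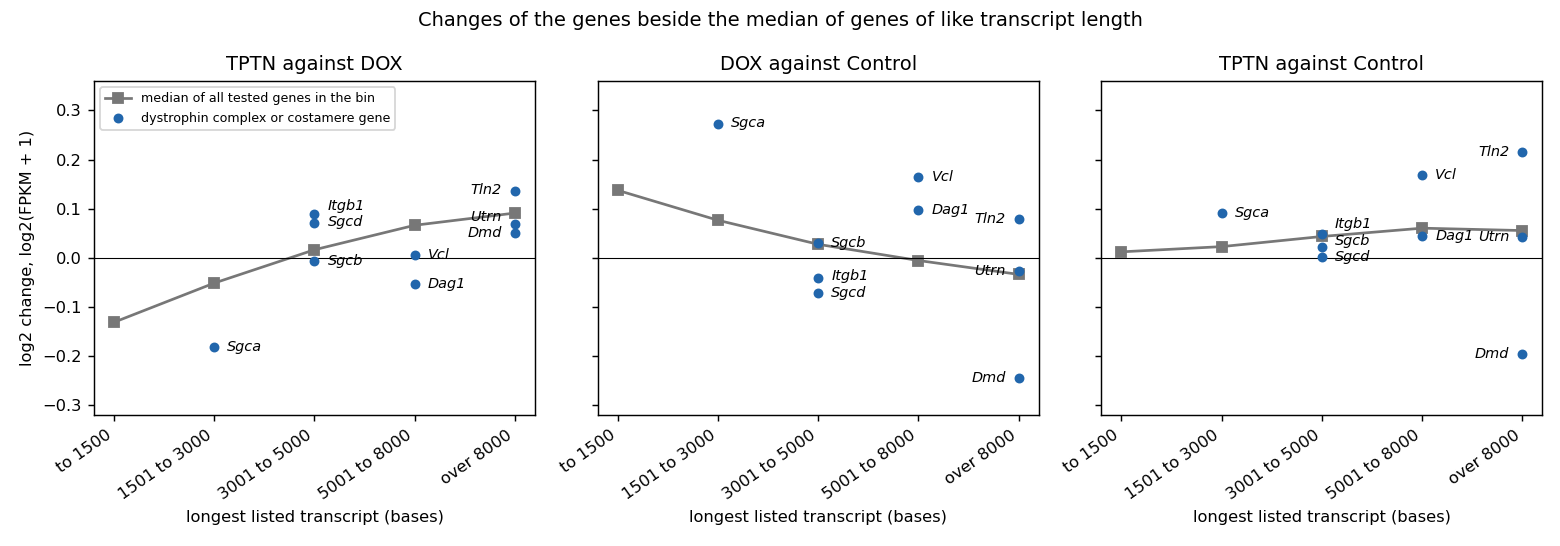
Change on the log2(FPKM + 1) scale (y axis) by class of longest listed transcript (x axis, bases) for the 3 comparisons; grey squares are medians of all tested genes in a class and blue points the 9 genes. In DOX against Control the class medians run from 0.14 to -0.03 with length. Sgca, Vcl, Tln2 and Dag1 lie above their classes and Dmd, Sgcd and Itgb1 below, while Utrn and Sgcb lie close to them.

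Partner genes were read from 5 lists of 99 genes, of which 87 were tested. The lists were chosen with earlier results of these data known, so their shares of calls are no independent comparison. In TPTN against DOX 3 rose and 2 fell, 5.75% of the tested list genes beside 3.26% of all tested genes. The median change was -0.07 over 8 other dystrophin complex genes and -0.07 over 17 dystroglycan glycosylation enzymes, beside -0.01 over all tested genes. Of 28 integrin, talin and vinculin partners 1 rose and 1 fell (median 0.07). Of 14 sarcolemmal repair and calpain genes 1 rose and 0 fell (median 0.04), and of 20 actin-binding, spectrin, ankyrin and filament genes 0 passed in limma (median 0.09). Over the 5 lists in the order given, 3 of 8, 6 of 17, 8 of 28, 2 of 14 and 8 of 20 genes had an unadjusted p under 0.05, beside 20.6% of all tested genes.

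Of the other dystrophin complex genes, Cav3, which encodes muscle caveolin, was at -0.27 in TPTN against DOX (28.0 ± 0.803 FPKM in TPTN and 33.9 ± 2.1 FPKM in DOX, SD, n = 3 each; limma adjusted p = 0.0746). Lama2, which encodes the laminin chain that dystroglycan binds, was at 0.12 (adjusted p = 0.413).

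Dysf encodes dysferlin, a membrane repair protein, and had 8.64, 9.05 and 9.17 FPKM in TPTN, 5.91, 6.72 and 6.65 FPKM in DOX and 7.50, 6.26 and 6.53 FPKM in Control. All TPTN libraries were above the other 6, and Dysf rose by 0.42 in TPTN against DOX (limma, SE 0.08, adjusted p = 0.0254).

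Itga9 encodes the alpha 9 chain that pairs with integrin beta 1. It had 6.30, 6.20 and 6.07 FPKM in TPTN, 2.98, 3.90 and 3.21 FPKM in DOX and 4.04, 3.79 and 4.30 FPKM in Control. TPTN stood clear of both groups, and Itga9 rose by 0.73 in TPTN against DOX (limma, SE 0.08, adjusted p = 0.00759) and by 0.51 in TPTN against Control (SE 0.08, adjusted p = 0.0251). Itgb5 encodes a beta chain that pairs with the alpha v chain, and had 18.8, 19.9 and 18.9 FPKM in TPTN, 26.7, 22.4 and 25.3 FPKM in DOX and 20.1, 21.1 and 21.3 FPKM in Control. It fell by 0.35 in TPTN against DOX (SE 0.07, adjusted p = 0.0341), and its change in DOX against Control was 0.24 (adjusted p = 0.112). Endothelial markers summed to 105 to 126 FPKM in TPTN, 107 to 113 FPKM in DOX and 102 to 108 FPKM in Control. Of these markers 1 of 6 rose in TPTN against DOX, beside 0.792% of all tested genes. In TPTN against Control 1 of 6 also rose, beside 0.336%. Among them Kdr was at 20.96 to 25.93 FPKM in TPTN and did not exceed 17.33 FPKM in any DOX or Control library. For the other endothelial markers TPTN overlapped both groups. Smooth muscle and pericyte markers, 0 of 6 past the threshold in limma, summed to 153 to 185 FPKM in TPTN, 132 to 173 FPKM in DOX and 121 to 174 FPKM in Control. The part of these cells in the Itga9 result was not tested.

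In DOX against Control the 5 lists held 1 call, 1.15% of their tested genes beside 2.63% of all. Short of the threshold, Xirp2 was at -0.34 (limma adjusted p = 0.0551), Cav3 at 0.29 (adjusted p = 0.0644) and Anxa6, a membrane-binding annexin gene, at 0.28 (adjusted p = 0.0702). In TPTN against Control 2 of 87 passed, 2.3% beside 0.72% of all tested genes, Itga9 and Xirp1. Xirp1 encodes an actin-binding repeat protein of intercalated discs, and had 33.8, 31.9 and 34.9 FPKM in TPTN, 28.9, 27.8 and 31.0 FPKM in DOX and 26.4, 24.2 and 20.6 FPKM in Control. It rose by 0.49 in TPTN against Control (SE 0.09, adjusted p = 0.0347).

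Most of these partner calls were lost when 1 library was left out. Of 20 other settings, Itga9 in TPTN against DOX passed in 19 (changes from 0.65 to 0.87; lost with no filter on low values), Dysf in 11 and Itgb5 in 9, while Itga9 passed in 11 and Xirp1 in 7 in TPTN against Control. Dysf was lost without any TPTN library or without DOX replicate 2 or 3 (adjusted p of 0.0603 to 0.0766), and Itgb5 without any TPTN library, DOX replicate 1 or 3 or Control replicate 3 (0.0536 to 0.104). Xirp1 was lost without any library but DOX replicate 1 and Control replicate 1 (0.0519 to 0.148). Itga9 in TPTN against Control was lost without any TPTN library or Control replicate 2 or 3 (0.0654 to 0.0968). These calls were also lost with the replicate block and with no filter on low values. Dysf and Xirp1 were lost with either length trend removed, and Xirp1 under median ratio scaling. Itgb5 was lost under quantile normalization and without mitochondrial genes and copies in the sum. Itga9 in TPTN against Control was lost under quantile normalization and with the trend on longest length removed.

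**Figure D5:**
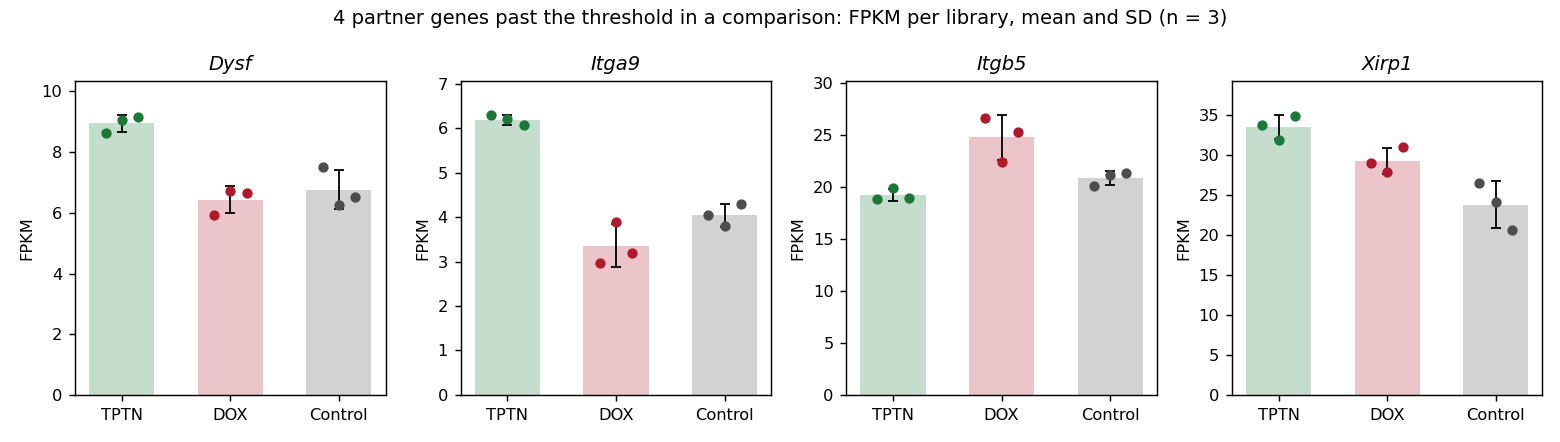
FPKM (y axis, from 0, a scale of its own in each panel) of 4 partner genes that passed in at least 1 comparison, in TPTN, DOX and Control libraries; points are libraries, bars the mean and whiskers the SD (n = 3). Dysf, Itga9 and Xirp1 are higher in every TPTN library than in any DOX or Control library.

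The genes most like each of the 9 over the 9 libraries were named by the largest Pearson correlation of log2(FPKM + 1) among 4135 genes of at least 5 FPKM, a search that returns high values at this n. They were mt-Tk (r = 0.89) and Fbxo32 (0.86) for Dmd, Ahcyl1 (0.94) and Hipk3 (0.93) for Utrn, and Dsc2 (0.95) and Gsk3a (0.92) for Dag1. For the sarcoglycans they were Fbxw8 (0.96) and Got2 (0.96) for Sgca, Dennd5a (0.96) and Ngdn (0.94) for Sgcb, and Rfng (0.95) and Tmem30a (0.93) for Sgcd. For Tln2 they were Nfix (0.96) and Nisch (0.94), for Vcl Snrpert (0.98) and Canx (0.96), and for Itgb1 Zfr (0.95) and Ptp4a2 (0.95).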

How the data were processed

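Polyadenylated RNA of 9 mouse heart libraries was sequenced as strand-marked paired reads, per the labels' protocols. The authors deposited 1 table of FPKM per gene and library. The submitters' processing notes name cutadapt 1.9, HISAT2 2.0.4, StringTie 1.3.4d, DESeq2, edgeR and the GRCm38 genome, without their roles. FPKM is divided by transcript length and library total, so a change in abundant transcripts moves all others; mitochondrial genes made up 44.7 to 50.9% of the FPKM sum and 7 nuclear copies another 18 to 19.7%. Counts were not used: only 15.8 to 18.4% of low values were whole steps within 0.05, so depth is unknown and no counting intervals are given.

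Values were tested as log2(FPKM + 1) with limma 3.58.1 (R 4.3.3), 1 mean per group, trend and robust moderation, on 12500 genes with a mean of at least 0.5 FPKM, and p-values were adjusted by Benjamini-Hochberg over all of them. Ratios of 2 genes were tested by exact permutation in Python 3.11.15. The limma step was also run on simulated data with independent noise, no library effects and no length trend. The changes put in were larger than those of the 9 genes, so that run says nothing of changes this small, and its outcome is not given here. Positions are from GENCODE M21, which holds 29154 of the 29237 genes, and promoter windows from RefSeq, which had 10 windows for 8 of the 9 genes. The 9 genes, the partner lists and the marker lists were chosen with earlier results of these data known. From each list, up to 4 genes with the smallest p in a comparison and any gene past the threshold could be named (some are not reported here), and 2 most similar genes for each of the 9.

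Alternatives changed 1 choice at a time: the fit (both compared groups alone, no robust step, a replicate block), the low-value handling (a pseudocount of 0.1, all genes kept, a minimum mean of 1 FPKM), the scaling (median ratio, quantile, or a sum without mitochondrial genes and copies), a length trend taken out, and each library omitted. Removal of a trend on median transcript length was added after seeing the data.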

Additional observations from a re-analysis of the deposited data

How the results depend on the processing

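The count of the 9 genes past the threshold was 0 in all 60 combinations of comparison and alternative setting run, and 0 of 537 single changes passed in limma (lowest adjusted p 0.0507, for Itgb1 in TPTN against DOX under quantile normalization). The sign of a single change differed in 51 of the 537, all of changes that did not pass. Leaving mitochondrial genes and their copies out of the sum moved the median of all genes to -0.07 in DOX against Control and 0.09 in TPTN against DOX, and that of the 9 genes to -0.13 and 0.13. With all libraries 329 genes passed in DOX against Control, but omitting DOX replicate 2 left 8 and DOX replicate 3 left 91, and omitting Control replicate 1, 2 or 3 left 203, 2 or 4. Without single libraries 45 (TPTN replicate 3) to 484 (DOX replicate 1) genes passed in TPTN against DOX and 21 (TPTN replicate 3) to 146 (Control replicate 1) in TPTN against Control. With no filter on low values 2, 2 and 6 of all genes passed in TPTN against DOX, DOX against Control and TPTN against Control, in place of 407, 329 and 90; the cause was not tested.

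The log2 ratio of Utrn over Dmd in TPTN against DOX was 0.00299 with a pseudocount of 0.1 and 0.0200 with 1, against -0.00166 with none, and ran from -0.0913 to 0.104 without single libraries. With a pseudocount of 1 it was 0.218 in DOX against Control and 0.238 in TPTN against Control. The log2 ratio of Tln1 over Tln2 ran, without single libraries, from -0.107 to 0.0117 in TPTN against DOX and from 0.0631 (DOX replicate 2) to 0.182 (DOX replicate 1) in DOX against Control. Same-numbered libraries did not deviate together (correlations of -0.261 to 0.0233), and 0 of 9 libraries correlated best with its own number, so the numbers were not taken as pairs. With the replicate block the Utrn over Dmd difference in DOX against Control was 0.37 (exact sign-flip permutation p = 0.25). That p is the lowest this test can give with 3 libraries a group. With the block 159, 170 and 62 of all genes passed in TPTN against DOX, DOX against Control and TPTN against Control. Depth is unknown, and Sgcd and Dmd, at no more than 2.08 FPKM, are the least precise of the 9.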
